A study of Mus musculus with 36 samples.

Results

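The hepcidin and iron handling genes were followed in mouse liver over the day under chronic intermittent hypoxia (IH). The group held 10 genes chosen by symbol: the hepcidin peptides Hamp and Hamp2, the regulators Bmp6, Hfe2 and Tmprss6, the transferrin receptors Tfr2 and Tfrc, the iron exporter Slc40a1, and the ferritin subunits Fth1 and Ftl1. All 10 were found among the 24066 symbols listed on 1 row, and all 10 belonged to the 13215 genes that averaged 0.1 FPKM or more and were tested. The mice were wild-type C57BL/6JRj males of 16 weeks. One arm breathed air that cycled between 21% and 5% oxygen 60 times per hour, from ZT0 (lights on) to ZT8 each day, for 4 weeks, and the control arm received air-to-air cycles in the same way. Livers of 3 mice per condition were taken at each of ZT0, ZT4, ZT8, ZT12, ZT16 and ZT20, which gave 36 libraries of polyadenylated RNA. Of the sampled hours, ZT4 fell within the daily exposure and ZT8 at its end. The mice were group housed, 5 to a cage, and the replicates are separate mice.

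Hepcidin is a peptide hormone that hepatocytes secrete. It binds ferroportin, the product of Slc40a1 and the route by which cells release iron to plasma, and causes it to be degraded, so that more hepcidin means less iron in the blood. Hepatocytes raise hepcidin transcription when BMP6, made by liver sinusoidal endothelial cells, acts on BMP receptors with hemojuvelin (encoded by Hfe2) as a co-receptor, and when interleukin-6 acts through STAT3 during inflammation. The protease matriptase-2 (Tmprss6) cleaves hemojuvelin and lowers the signal, and transferrin receptor 2 (Tfr2) senses iron-loaded transferrin. The mRNAs of ferritin, ferroportin and transferrin receptor 1 (Tfrc) carry iron-responsive elements, hairpins bound by iron regulatory proteins, which block translation from the 5′ UTR and protect the mRNA from decay from the 3′ UTR. Loss of oxygen and the demand of red cell formation are known to lower hepcidin.

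The sequences below hold letters that match the known elements of these 2 kinds of control. Hamp lies at chr7:30942368-30944032 and Hamp2 at chr7:30922372-30924681 of GRCm38 (mm10), both on the minus strand and 17686 bases apart, and the 250 bases before their start sites were 91.9% identical over 247 aligned bases. Promoter entries were taken from RefSeq, in which 7 of the 10 members had at least 1; Slc40a1, Hfe2 and Tmprss6 are named only. The stretch from 150 to 21 bases before each hepcidin start is given 5′ to 3′, with 2 places in capitals: the core of the BMP response element (GGCGCC, or the bases aligned with it in Hamp2) and the match to the STAT motif (TTCNNNGAA).

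Hamp (chr7:30944050-30944179, minus strand): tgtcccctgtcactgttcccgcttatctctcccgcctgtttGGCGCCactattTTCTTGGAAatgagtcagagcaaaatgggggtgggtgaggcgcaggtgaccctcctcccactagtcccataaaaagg
Hamp2 (chr7:30924202-30924331, minus strand): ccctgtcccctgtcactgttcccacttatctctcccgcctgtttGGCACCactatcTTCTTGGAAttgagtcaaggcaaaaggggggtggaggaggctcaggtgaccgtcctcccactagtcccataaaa

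The core hexamer stood 109 bases before the start of Hamp and was interrupted in Hamp2 by 1 substitution, G4A, counted from the first base of the hexamer with the Hamp base first. The STAT match was the same in both. Each of the motifs searched reads the same on both strands, and they did not overlap. In the window from 250 bases before to 50 after the start, GGCGCC was held by 13.4% of the 27025 symbols with a promoter, TTCNNNGAA by 9.55% and the E-box CACGTG by 8.09%. Beside Hamp, Tfrc held GGCGCC and Bmp6 held CACGTG, and the other entries of members had no match. A match describes the letters and is not a measured site.

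Iron-responsive element letters (a C, then 5 bases, the loop CAGTGN and 5 bases able to pair with the first 5, G with T allowed) were searched in the UTRs of GENCODE M21 transcripts. They were present in a 5′ UTR of 28 of 20520 genes (0.136%), among them Fth1, Ftl1 and Slc40a1, and in a 3′ UTR of 127 of 20884 genes (0.608%), among them Tfrc, with 4 sites. The 6-base loop is in capitals, and for Tfrc the first of the 4 sites is shown.

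Fth1 (chr19:9982733-9982759, plus strand): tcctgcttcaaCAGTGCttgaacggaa
Ftl1 (chr7:45459780-45459806, minus strand): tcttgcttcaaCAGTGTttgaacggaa
Slc40a1 (chr1:45925466-45925492, minus strand): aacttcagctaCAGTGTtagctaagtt
Tfrc (chr16:32631220-32631246, plus strand): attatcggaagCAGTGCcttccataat

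Expression was read as FPKM, fragments scaled to transcript length and to the mapped fragments of the library, as the authors deposited it. The files give no read counts, so the depth behind a value is not known. Libraries had 15573 to 16188 symbols above 0, and 35 of the 36 held a total of 540095 to 579428 FPKM. The total was 758113 FPKM in control ZT12 replicate 2. Saa1, a liver protein of the acute phase, exceeded 10000 FPKM in 3 libraries (IH ZT0 replicate 2, control ZT12 replicate 2 and control ZT16 replicate 3) and 1000 FPKM in 8, which included control ZT4 replicates 1 and 3. The summed neutrophil markers reached 212 FPKM and the macrophage markers 180 FPKM in control ZT12 replicate 2, against medians of 1.32 and 41.5 FPKM over the control libraries. The 6 hepatocyte markers summed to 36024 FPKM or more in every library. Without the 3 libraries with high Saa1, 11 of the 80 differences between the conditions in the members changed sign. None of the 3 came from ZT4, ZT8 or ZT20, so the differences there could not change, and every call of a member lay there. Values without the 3 libraries are given beside the results they bear on. In bulk liver RNA, a change in the number of cells of a type and a change in RNA per cell cannot be told apart.

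Hepcidin and ferritin were among the most abundant transcripts of the liver. Per unit of length, Hamp was the 22nd most abundant of the 13215 genes with a mean of 3573 ± 1268 FPKM (SD, n = 36 libraries). Ftl1 was the 25th with 3374 ± 564 FPKM, and these levels did not differ beyond their spread. Fth1 followed with 1430 ± 195 FPKM. Tmprss6 (124 ± 12.4 FPKM) and Tfr2 (108 ± 9.87 FPKM) overlapped in range, as did Hamp2 (64.1 ± 32.3), Hfe2 (34.9 ± 8.93) and Slc40a1 (25.0 ± 9.36). Tfrc (3.66 ± 2.14 FPKM) and Bmp6 (0.931 ± 0.298 FPKM) were low. The genes also differed in how much they moved: the highest library exceeded the lowest by 1.59-fold for Tfr2, 1.76-fold for Tmprss6, 5.10-fold for Hamp, 7.69-fold for Tfrc and 14.2-fold for Bmp6. Without the 3 libraries with high Saa1 the ratio was 3.93-fold for Bmp6 and 1.33-fold for Tmprss6, and as before for Tfr2, Hamp and Tfrc.

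Hamp was higher in IH than in control without overlap at the 2 times sampled within or at the end of the exposure, and the difference did not pass adjustment. At ZT4 it was 4505, 5032 and 4594 FPKM in IH against 3888, 3192 and 3796 FPKM in control, and at ZT8 it was 5948, 3683 and 5302 FPKM against 1292, 3168 and 3459 FPKM. At both times the lowest IH library stood above the highest control library, as it did for 26.7% of all genes at ZT4 and 11% at ZT8. At ZT20 the values were 3033, 3769 and 2457 FPKM in IH and 1605, 2637 and 1235 FPKM in control, and these overlapped. Around lights on the replicates of one group differed most: the IH mice at ZT0 held 6293, 2144 and 1770 FPKM and the control mice 2004, 4754 and 4465 FPKM. At ZT12 and ZT16 the conditions lay close together, with means of 4315 ± 676 and 3877 ± 1433 FPKM at ZT12 and of 3327 ± 499 and 3343 ± 719 FPKM at ZT16 (SD, n = 3 mice), IH first. The difference at ZT12 was 0.22 ± 0.40 with all libraries and -0.13 ± 0.43 without the 3 with high Saa1. The lowest group mean was that of control at ZT20, with 1826 ± 726 FPKM, and the highest that of IH at ZT8, with 4978 ± 1167 FPKM.

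**Figure D1:**
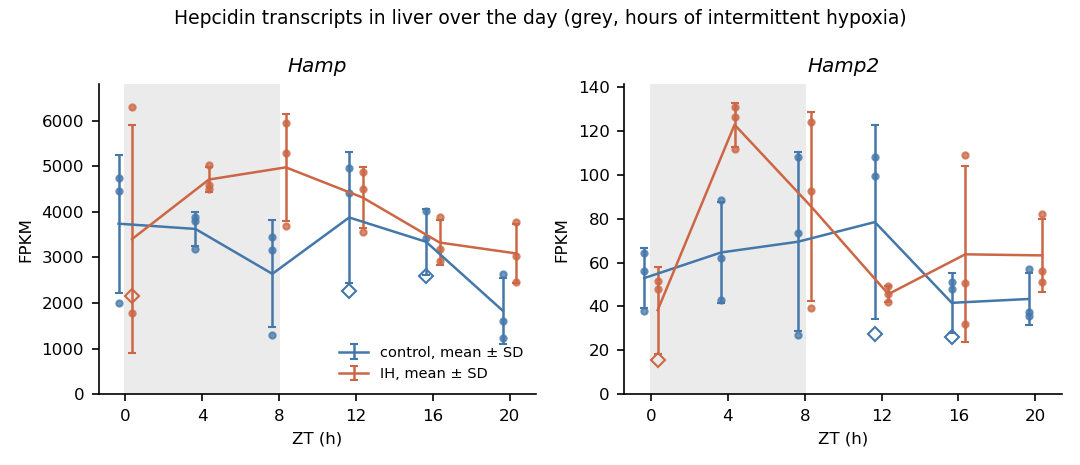
FPKM of Hamp (left) and Hamp2 (right) against time of day (ZT, h) in control and IH livers; points are libraries, lines join the means of 3 mice with SD bars, open diamonds are the 3 libraries with Saa1 above 10000 FPKM, and grey marks the hours of exposure. Hamp in IH lies above control without overlap at ZT4 and ZT8, and Hamp2 does so at ZT4, where its IH mean is 123 FPKM.

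On the log2(FPKM + 1) scale used for all tests, Hamp was higher in IH by 0.70 ± 0.23 (SE) over ZT4 and ZT8 together, 1.62-fold, which did not pass adjustment over all genes (limma, p = 0.0105, adjusted p = 0.083, n = 12 libraries). The difference was 0.38 ± 0.40 at ZT4, 1.01 ± 0.40 at ZT8 (adjusted p = 0.93) and 0.81 ± 0.40 at ZT20 (adjusted p = 1). Leaving out the 3 libraries with high Saa1 touched none of the ZT4 and ZT8 libraries, and the value at ZT8 then had an adjusted p of 0.40. Without control ZT8 replicate 1, the lowest library of its group, the difference at ZT8 was 0.56. Saa1 in that library was 828 FPKM, against 24.0 and 19.1 FPKM in the other control libraries of ZT8.

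Hamp2, the other mouse hepcidin gene, separated the conditions only at ZT4. There it was 126, 131 and 112 FPKM in IH and 62.2, 43.0 and 88.6 FPKM in control. The IH mice at ZT8 already spread from 39.1 to 124 FPKM, across the control range of 26.9 to 108 FPKM. The difference was 0.97 ± 0.52 at ZT4 (adjusted p = 0.36) and -0.55 ± 0.52 at ZT12 (adjusted p = 0.53). Without the 3 libraries with high Saa1 the value at ZT12 was -1.17 ± 0.47 (adjusted p = 0.25). The ratio of Hamp to Hamp2 ranged from 32.0 to 139 over the 36 libraries, with a median of 48.9. The 2 genes are near copies, so reads could have been split between them, and a level of Hamp2 of this size may hold some reads of Hamp; how the authors' counting shared them is not stated. Hamp2 is therefore uncertain.

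Among the regulators, Bmp6 rose in IH during the exposure. At ZT4 it was 1.33, 1.32 and 1.44 FPKM in IH against 0.665, 0.936 and 0.537 FPKM in control, and at ZT8 it was 1.07, 1.199 and 1.12 FPKM against 0.419, 0.964 and 0.995 FPKM. The groups did not overlap at either time. Over both times the difference was 0.37 ± 0.09 on the log2(FPKM + 1) scale (limma, adjusted p = 0.030, higher in 6 of 6 libraries than every control library of its time point), a scale that understates the change of a gene this low. At ZT4 alone it had an adjusted p of 0.145 (limma), and of 0.021 without the 3 libraries with high Saa1, none of them from ZT4. The call for Bmp6 was lost when any 1 of 8 of the 12 libraries was left out, with an adjusted p of up to 0.072 and a difference of 0.31 to 0.42. Markers of liver sinusoidal endothelial cells, the known source of BMP6, moved the same way at ZT4: their sum was 44.5, 49.8 and 51.9 FPKM in IH and 38.0, 44.0 and 36.0 FPKM in control, 1 of the 7 (Stab1) was called higher at ZT4 and ZT8, and their part in the Bmp6 difference was not tested. At ZT8 the sums overlapped. In control ZT8 replicate 1, which held the lowest Bmp6 of its group, Saa1 was 828 FPKM. It was 24.0 and 19.1 FPKM in the other control libraries of that time. Replicate 1 thus lay under a cut of 1000 FPKM and was kept when that cut was used. Saa1 also stood above 1000 FPKM in 2 of the 3 control libraries at ZT4, and without the 8 libraries above that level the difference in Bmp6 was 0.27 ± 0.09 (adjusted p = 0.18).

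Hfe2, which encodes hemojuvelin, followed the time of day in both conditions and was called different between them at no time. In control it was 47.5, 33.5 and 37.5 FPKM at ZT0, and 24.5, 21.7 and 20.4 FPKM at ZT8. In IH it was 42.0, 41.3 and 39.2 FPKM at ZT0, and 29.6, 27.6 and 17.2 FPKM at ZT8. It was lowest at ZT8 and ZT12 and regained its level by ZT16, when IH (48.7, 41.9 and 46.7 FPKM) stood above control (36.1, 38.1 and 30.5 FPKM) without overlap. That difference of 0.38 ± 0.16 did not pass adjustment (limma, adjusted p = 1). The lowest of these control values came from a library with high Saa1, and without the 3 such libraries the difference was 0.29 ± 0.17.

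Tmprss6 varied little. It ranged from 81.7 to 144 FPKM with medians of 126 FPKM in both conditions, and its lowest values, 81.7 and 99.7 FPKM, were in control ZT12 replicate 2 and IH ZT0 replicate 2, both among the 3 libraries with high Saa1, without which the difference at ZT12 turned from 0.05 to -0.16 (adjusted p = 0.30). With all libraries its differences between the conditions ran from -0.19 to 0.09 over the 6 time points, and the adjusted p was 0.59 or more at every time point and over ZT4 and ZT8.

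Tfrc, which brings transferrin-bound iron into cells, had the largest fitted daily swing of the members in both conditions. In control it stayed between 1.77 and 2.74 FPKM at ZT0, ZT4, ZT8 and ZT20, and rose to between 3.75 and 8.27 FPKM at ZT12 and ZT16. In IH the same rise ran from 4.09 to 10.1 FPKM, and it started from lower values at ZT4 and ZT8. At ZT4 the IH libraries held 1.68, 1.36 and 1.31 FPKM against 2.12, 2.74 and 2.60 FPKM in control. At ZT8 they held 1.62, 1.73 and 1.68 FPKM against 1.84, 2.42 and 2.56 FPKM. At ZT12 the order was turned round, with 6.89, 10.1 and 6.71 FPKM in IH against 5.82, 4.00 and 5.81 FPKM in control. IH was also above control without overlap at ZT0 (3.22 to 3.54 against 2.47 to 2.49 FPKM) and at ZT20 (2.89 to 3.50 against 1.77 to 2.72 FPKM). Only at ZT16 did the conditions overlap.

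Over ZT4 and ZT8, Tfrc fell by 0.40 ± 0.07 on the log2(FPKM + 1) scale in IH (limma, adjusted p = 0.015, lower in 6 of 6 libraries), and this call was kept whichever 1 of the 12 libraries was left out. Without the 8 libraries with Saa1 above 1000 FPKM it was -0.39 ± 0.09 (adjusted p = 0.095). At the single times the differences were -0.51 ± 0.18 at ZT4 (adjusted p = 0.148) and 0.51 ± 0.18 at ZT12 (adjusted p = 0.10). Without the 3 libraries with high Saa1, none of them from ZT4, the first was -0.51 ± 0.15 and passed (adjusted p = 0.036), and the second was 0.36 ± 0.17 (adjusted p = 0.32). The difference at ZT12 exceeded that at ZT4 by 1.02 ± 0.26 (limma, adjusted p = 0.021), a pair of times chosen after the values were seen, in a comparison that called 5.88% of all genes. Over all time points the difference was 0.07 ± 0.09 (adjusted p = 0.80), and -0.01 ± 0.09 without the 3 libraries with high Saa1.

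Tfr2, the iron sensor of hepatocytes, varied little, at 91.0 to 121 FPKM in IH and 93.2 to 144 FPKM in control. At ZT16 it was lower in IH without overlap, 100.1, 98.5 and 94.9 FPKM against 102, 100.7 and 126 FPKM, with a difference of -0.15 ± 0.10 (adjusted p = 1), and the highest of these control values came from a library with high Saa1. Without the 3 such libraries the difference was -0.05 ± 0.10.

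**Figure D2:**
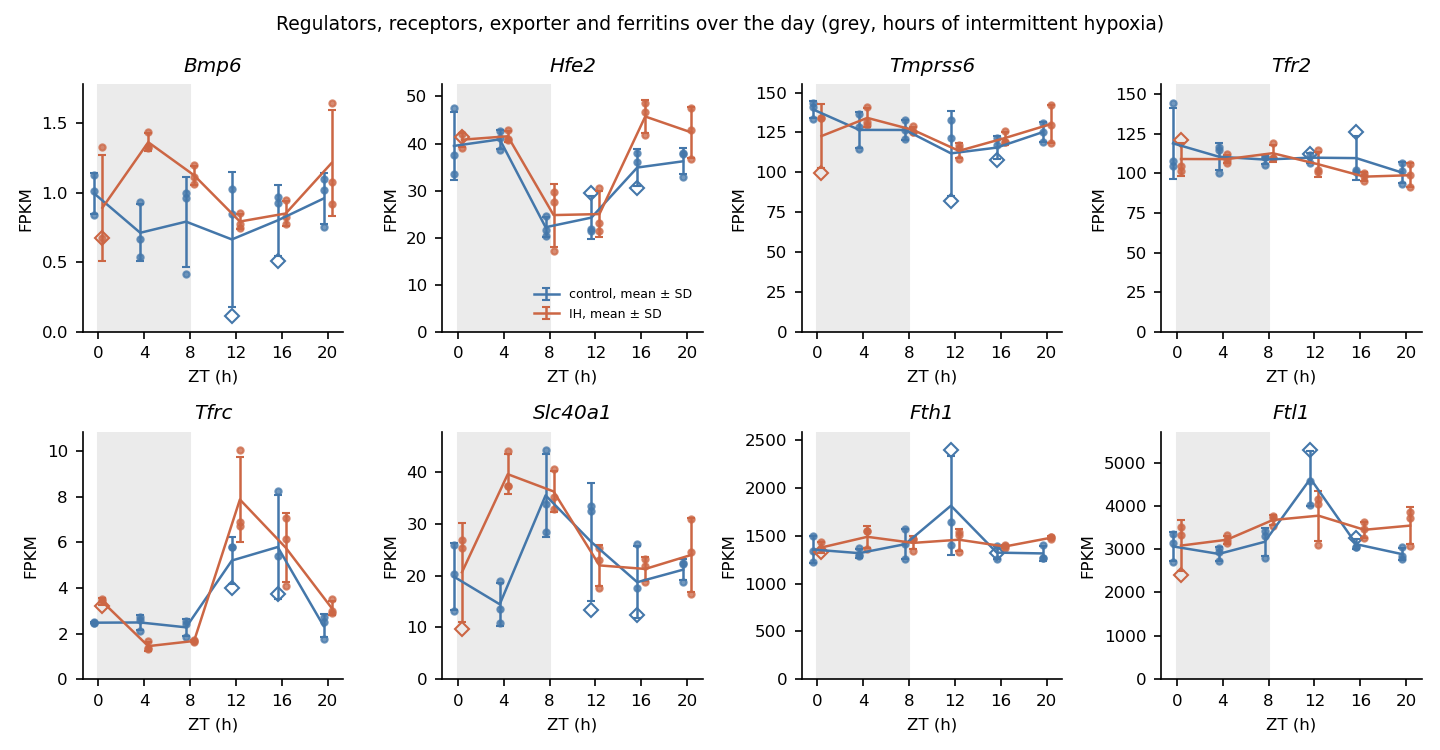
FPKM of the 8 other members against time of day (ZT, h), drawn as for hepcidin: points are libraries, lines join the means of 3 mice with SD bars, open diamonds mark the 3 libraries with Saa1 above 10000 FPKM, and grey marks the hours of exposure. Slc40a1 in control falls to 14.5 FPKM at ZT4 while IH stands at 39.6 FPKM, Tfrc in IH is below control at ZT4 and ZT8 and above it at ZT12, and Hfe2 dips at ZT8 and ZT12 in both.

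The largest difference of the group was in Slc40a1, the gene for ferroportin. At ZT4 it was 37.3, 44.1 and 37.4 FPKM in IH and 10.9, 19.0 and 13.5 FPKM in control, so that the groups did not overlap. By ZT8 the 2 conditions were alike in range, 32.9 to 40.6 FPKM in IH and 28.4 to 44.3 FPKM in control. The control mean was lowest at ZT4 and highest at ZT8, while the IH mean was highest at ZT4 and the IH libraries held 17.6 to 25.3 FPKM at ZT12. At ZT4 the difference was 1.42 ± 0.33 on the log2(FPKM + 1) scale, 2.68-fold (limma, adjusted p = 0.032, higher in 3 of 3 libraries). It was 0.05 ± 0.33 at ZT8. Over both times it was 0.73 ± 0.24 (adjusted p = 0.076).

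For ZT4, leaving out the 3 libraries with high Saa1, none of them from that time, changed only the shared estimate of the spread. The Slc40a1 value at ZT4 thus had to stay at 1.42, with an SE of 0.22 in place of 0.33 (limma, adjusted p = 6.8e-04). It was 1.02 ± 0.31 (adjusted p = 0.136) without the 8 libraries above 1000 FPKM, which leaves 1 control library at ZT4, assumed to vary like the other groups. The call was lost when any 1 of the 6 libraries at ZT4 other than control replicate 2 was left out, with a difference of 1.25 to 1.46 in those 5 fits and an adjusted p of up to 0.146. Macrophages also express ferroportin, and at ZT4 their 8 markers summed to 23.4, 44.2 and 33.8 FPKM in IH and 45.1, 32.1 and 67.4 FPKM in control, which overlapped; their part in the Slc40a1 difference was not tested.

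Ferritin, the store of iron in cells, moved little. Ftl1 (light subunit) was 3319, 3133 and 3202 FPKM in IH and 3025, 2928 and 2718 FPKM in control at ZT4. At ZT8 it was 3760, 3713 and 3545 FPKM against 2797, 3410 and 3302 FPKM. The groups did not overlap at either time, and the difference over both was 0.19 ± 0.06, 1.14-fold (limma, p = 0.0081, adjusted p = 0.072, n = 12 libraries). At ZT12 the mean was lower in IH and the groups overlapped, with 4565, 5289 and 4030 FPKM in control against 4050, 4166 and 3106 FPKM in IH and a difference of -0.30 ± 0.13 (adjusted p = 0.17), which was -0.20 ± 0.12 without the 3 libraries with high Saa1.

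Fth1 (heavy subunit) ranged from 1327 to 1554 FPKM in IH and from 1225 to 1642 FPKM in control apart from control ZT12 replicate 2, where it was 2397 FPKM. Its difference over ZT4 and ZT8 was 0.10 ± 0.07 (adjusted p = 0.36). The ratio of Ftl1 to Fth1 stayed between 1.81 and 2.87 in the 36 libraries. Ferritin genes have many processed copies in the genome, which could take or lend reads, so their levels are uncertain.

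Counted together, 1 of the 10 members was called at ZT4 (Slc40a1, higher), against 1.16% of the 13215 genes called at that time, 0.885% higher and 0.272% lower. At ZT4 and ZT8 together 2 were called, Bmp6 higher and Tfrc lower, against 7.98% of all genes, 6.05% higher and 1.93% lower. No member was called at the other time points or over all of them, where 0% of genes were called at ZT0 and ZT20, 0.00757% at ZT8 and at ZT16, 0.772% at ZT12 (0.272% higher and 0.499% lower) and 0.356% over all time points (0.303% higher and 0.053% lower). With limma at an unadjusted p under 0.05, 1000 genes passed at ZT0 and 627 at ZT20. The median difference over the members was 0.16 at ZT4 and 0.14 over ZT4 and ZT8, and over all genes 0.07 and 0.04. Members that did not overlap between the conditions were 5 higher and 1 lower at ZT4, against 26.7% and 7.79% of all genes, and 3 higher and 1 lower at ZT8, against 11% and 7.16%. At ZT0 Tfrc was higher without overlap, against 4.59% of all genes higher and 6.21% lower, and at ZT12 it was so again, against 6.34% and 6.74%. At ZT16 Hfe2 and Ftl1 were higher and Tfr2 lower, against 10% and 3.84%, and at ZT20 Tfrc, Fth1 and Ftl1 were higher, against 11.8% and 4.18%.

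**Figure D3:**
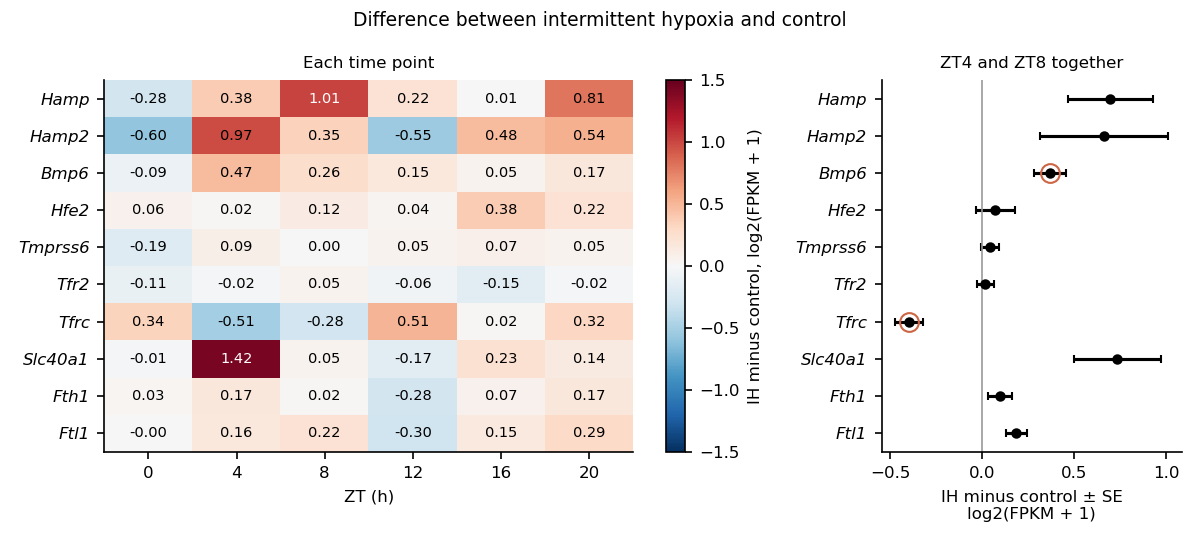
Left, difference between IH and control for each member (rows) at each time point (columns, ZT in h), as colour and number on the log2(FPKM + 1) scale; right, the difference over ZT4 and ZT8 with its SE, with circles on the members past an adjusted p of 0.05. Slc40a1 at ZT4 (1.42) is the largest value, Tfrc changes from -0.51 at ZT4 to 0.51 at ZT12, and Bmp6 and Tfrc carry the circles.

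A 24-h rhythm was fitted within each condition as a cosine. Hfe2 and Tfrc passed the nominal P of 0.01 in both conditions, 2 of 10 members in each, against 20% of all genes in control and 39.9% in IH. With an adjusted p under 0.05 in its place, the members were 2 in control against 20.1% of all genes and 4 in IH, with Slc40a1 and Tfr2 added, against 47.9%. Hfe2 peaked at ZT22.7 in control (P = 3.0e-04) and at ZT21.5 in IH (P = 8.9e-04, n = 18 libraries each), with a peak 1.74-fold and 1.82-fold above its trough. Tfrc peaked at ZT14.2 in control (P = 0.0010), 2.00-fold above its trough, and at ZT15.5 in IH (P = 1.6e-04, n = 18 libraries each), 2.87-fold above it. Hamp had a P of 0.63 in control and 0.024 in IH (n = 18 libraries each), where the fitted peak fell at ZT8.2 with 1.76-fold between peak and trough. Slc40a1 had a P of 0.21 in control, with its fitted peak at ZT10.6, and of 0.020 in IH (n = 18 libraries each), with its fitted peak at ZT6.2.

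IH ZT0 replicate 2, 1 of the 3 libraries with high Saa1, decided part of this. Without it, Slc40a1 (P = 1.1e-04, peak at ZT4.7), Tfr2 (P = 0.0034, peak at ZT6.7, 1.15-fold) and Tmprss6 (P = 0.0016, peak at ZT1.0, 1.18-fold; n = 17 libraries) also passed in IH, 5 of 10 members against 42.4% of all genes. In control, where 2 of the 3 libraries were, Slc40a1 without them had a P of 0.0128 (n = 16 libraries), peaked at ZT12.0 and swung 1.96-fold, short of the nominal threshold of 0.01. Hamp passed in IH when IH ZT0 replicate 1, its highest library, was left out instead (P = 0.0017, n = 17 libraries). The difference between the rhythms of the 2 conditions was called for no gene (limma, 0%, 649 at an unadjusted p under 0.05), and the members had adjusted p from 0.92 to 0.99. Slc40a1 had the smallest p of the members in that test without the 3 libraries (p = 4.5e-04, adjusted p = 0.29, n = 33 libraries, with 0 genes called).

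The 2 genes most like Hamp in pattern, Id1 and Smad7, are known targets of BMP signalling. The r of other targets of the pathway is not given here. Over the 36 libraries, Pearson's r with Hamp was highest for Id1 (0.72), an inhibitor of DNA-binding that BMP induces, and next for Smad7 (0.68), the feedback inhibitor of the pathway, of all 13215 genes, ahead of 2410002F23Rik (0.66), Grk6 (0.64) and Tmem50b (0.64), while Hamp2 stood at 0.54. These values hold the differences between the groups as well as those between mice.

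Taken as deviations from the means of the 12 groups, so that condition and time were removed, Hamp varied with Smad7 (r = 0.74, Spearman's rho = 0.73, 36 libraries, permutation test within groups p = 1.1e-04, adjusted p = 6.6e-04 over the 6 genes tried) and with Id1 (r = 0.67, rho = 0.66, permutation p = 0.0011, adjusted p = 0.0033). The 6 genes were chosen with earlier results of these data known, and the adjustment does not cover a choice among all genes. Both relations held without the 2 libraries farthest from the median (r = 0.68 and 0.60) and without the 3 libraries with high Saa1 (r = 0.72 and 0.64). Smad7 held within control (r = 0.79, 18 libraries, permutation test, adjusted p = 0.0095) and within IH (r = 0.67, adjusted p = 0.022). Id1 held within IH (r = 0.82, 18 libraries, permutation test, adjusted p = 0.022) and was short of the threshold within control (r = 0.56, adjusted p = 0.066).

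Over all libraries the other 4 genes tried had smaller r. Hamp and Tfrc had r = 0.43 (rho = 0.52, permutation test, adjusted p = 0.0049), which fell to 0.31 (adjusted p = 0.073) without the 3 libraries. It was 0.62 within control (18 libraries, permutation test, adjusted p = 0.0095) and 0.13 within IH (adjusted p = 0.615). For Bmp6 itself r was 0.30 (adjusted p = 0.33), 0.0039 without the 3 libraries, 0.59 within control (adjusted p = 0.071) and -0.27 within IH. Creb3l3, a hepatocyte factor of the acute phase, gave 0.05 (adjusted p = 0.83). For it r was -0.15 within control (adjusted p = 0.64) and 0.50 within IH (rho = 0.58, permutation test, adjusted p = 0.074). Saa1, induced by the inflammatory signals that also raise hepcidin, gave r = -0.40 (rho = -0.35, permutation test, adjusted p = 0.175). Without the 3 libraries r was -0.12 (adjusted p = 0.91). The libraries with the most Saa1 did not hold the most Hamp. In the 3 of them above 10000 FPKM, Hamp was 2144, 2254 and 2585 FPKM, against a median of 3623 FPKM over all libraries, which pools conditions and times. Within its own group the first was not the lowest, as IH ZT0 replicate 3, with Saa1 at 79.7 FPKM, held 1770 FPKM. The others were the lowest of their groups.

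**Figure D4:**
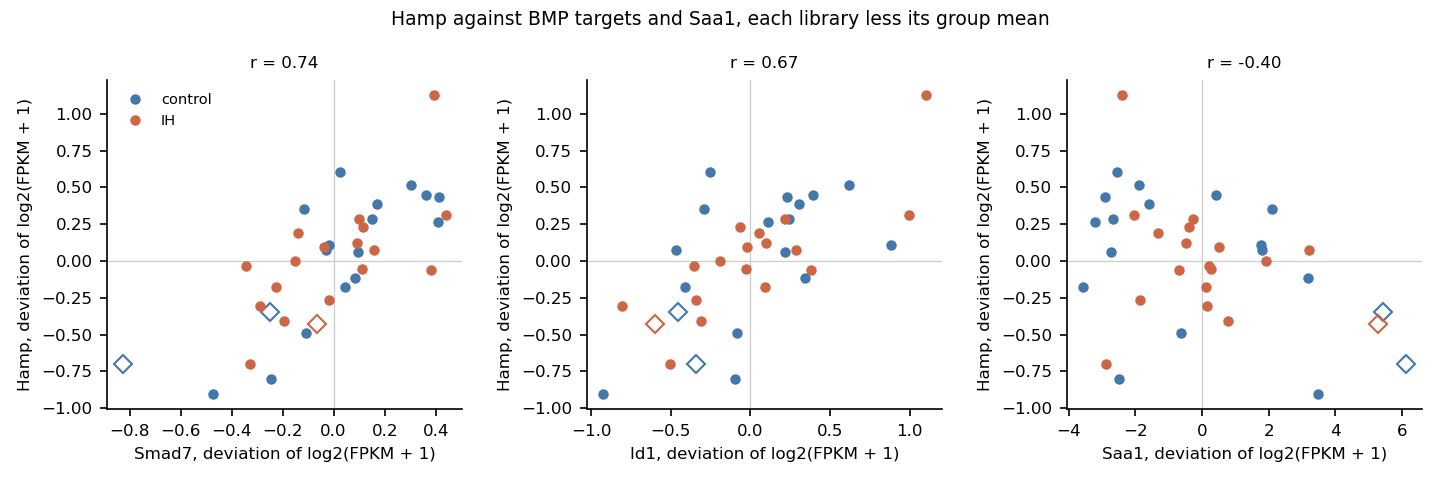
Hamp against Smad7, Id1 and Saa1, each as the deviation of a library's log2(FPKM + 1) from the mean of its group of 3 mice; colours are the conditions and open diamonds the 3 libraries with Saa1 above 10000 FPKM. Points rise together for Smad7 (r = 0.74) and Id1 (r = 0.67), and the 3 libraries with the most Saa1 lie below 0 for Hamp (r = -0.40, and -0.12 without them).

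Because Saa1 marked libraries that stood apart, its relation to each of the 10 members was also computed, after the values had been seen. Over the 36 libraries, again as deviations from group means, Bmp6 and Saa1 went in opposite directions (r = -0.81, rho = -0.79, permutation test, adjusted p = 8.5e-04 over the 10 members). This held without the 3 libraries (r = -0.68, adjusted p = 0.019) and within control (r = -0.94, adjusted p = 0.0020), while within IH, where Saa1 exceeded 1000 FPKM in 2 of 18 libraries, r was -0.47 (adjusted p = 0.60). Bmp6 was at its lowest, 0.116 FPKM, in control ZT12 replicate 2.

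Tmprss6 had r = -0.80 with Saa1 (rho = -0.79, permutation test, adjusted p = 8.5e-04), and -0.57 (adjusted p = 0.082) without the 3 libraries. Slc40a1 (r = -0.65) and Hamp2 (r = -0.55) also passed over all libraries (permutation test, adjusted p = 0.033 for both) and rested on the 3 libraries, without which r was -0.17 and -0.12. With median-of-ratios scaling r was -0.80 for Bmp6 and -0.69 for Tmprss6, and 2 members, Tfr2 (0.75) and Hfe2 (0.47), then passed with a positive sign.

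**Figure D5:**
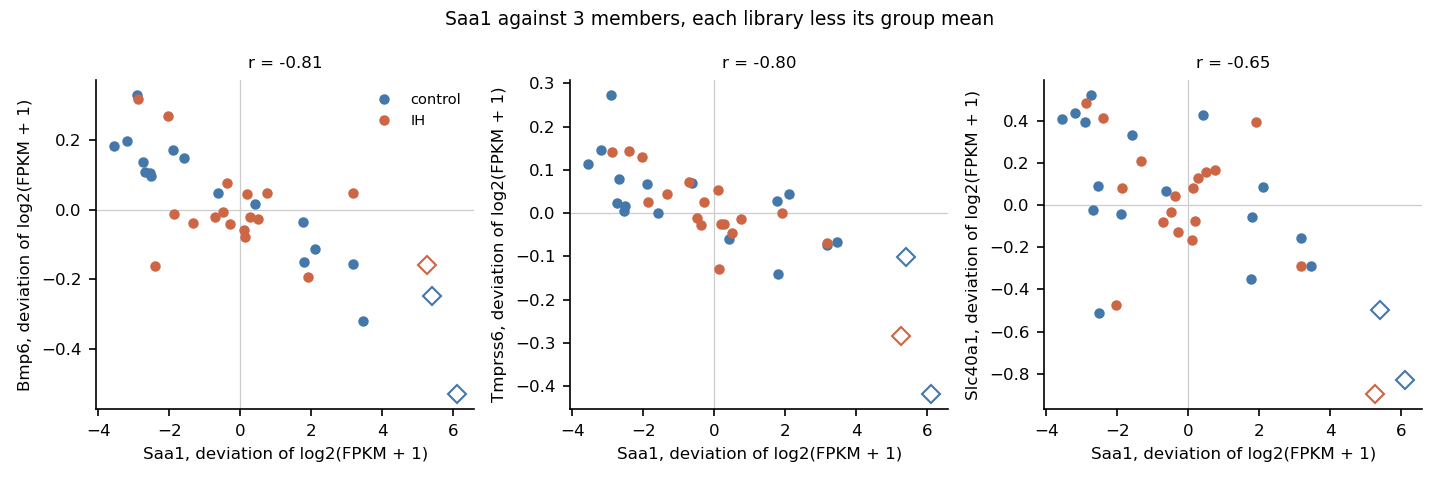
Bmp6, Tmprss6 and Slc40a1 against Saa1, each as the deviation of a library's log2(FPKM + 1) from the mean of its group of 3 mice; colours are the conditions and open diamonds the 3 libraries with Saa1 above 10000 FPKM. Bmp6 and Tmprss6 fall with Saa1 (r = -0.81 and -0.80), and for Slc40a1 the slope rests on the 3 diamonds (r = -0.65).

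Tfrc had its own set of companions. The genes with the highest r over the 36 libraries were Rrp12 (0.86), Rcan1 (0.85), Dnaja1 (0.85), Itpr1 (0.85) and Tcp1 (0.84). Dnaja1 and Tcp1 encode a heat shock cochaperone and a subunit of the cytosolic chaperonin, and Rrp12 a factor of ribosome assembly. With Hamp, Tfrc had an r of 0.13 on this measure. Such values hold the differences between groups, time of day among them, as well as those between mice. As deviations from group means, r between Hamp and Tfrc was 0.43, and 0.31 without the 3 libraries with high Saa1.

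The rest of iron metabolism was read from 8 lists, 81 genes tested. The lists were chosen with earlier results known. Over ZT4 and ZT8, 6 of the 81 were called, 3 higher and 3 lower in IH, against the 7.98% of all genes given above. None of the 15 genes of BMP-SMAD signalling was called at any time. Their median difference over ZT4 and ZT8 was 0.042, against 0.039 over all genes. It was 0.20 at ZT4 (0.07 over all genes), -0.0013 at ZT8 (0.01) and 0.20 at ZT12 (0.03), after the exposure. The value at ZT12 includes control replicate 2, a library with high Saa1, and was not computed without it. In the list of interleukin-6 and the acute phase, 2 of 19 were called, both lower: Stat3, the factor that carries the interleukin-6 signal to hepcidin (-0.65 ± 0.15, adjusted p = 0.028), and Steap4, a metalloreductase (-1.37 ± 0.34, adjusted p = 0.034). At ZT4 Stat3 averaged 18.4 ± 0.66 FPKM in IH and 41.0 ± 5.19 FPKM in control (SD, n = 3 mice). The control ZT4 livers are those in which 2 of 3 held Saa1 above 1000 FPKM, and without the 8 such libraries the difference in Stat3 over ZT4 and ZT8 was -0.44 (adjusted p = 0.15). The Stat3 call was lost in 6 and the Steap4 call in 8 of the 12 fits without 1 library.

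Slc11a2, the DMT1 carrier that moves iron across membranes, had the smallest adjusted p of these lists. It was lower in IH at ZT4 (4.83 ± 0.24 against 7.63 ± 0.68 FPKM, SD, n = 3 mice; difference -0.56 ± 0.14, limma, adjusted p = 0.040). Over ZT4 and ZT8 the difference was -0.45 ± 0.06 (adjusted p = 0.0065), and this call held in each of the 12 fits without 1 library, while that at ZT4 was lost in 6 of 36. It was the only 1 of 9 genes of uptake and plasma transport called in level. Hebp1 (heme binding, 0.28 ± 0.05, adjusted p = 0.012), Hmox2 (the constitutive heme oxygenase, 0.20 ± 0.05, adjusted p = 0.042) and Glrx5 (iron-sulphur cluster assembly, 0.21 ± 0.05, adjusted p = 0.028) were higher over ZT4 and ZT8. Hmox2 and Glrx5 were not called with median-of-ratios scaling (adjusted p = 0.19 and 0.067), and were lost in 9 and 8 of the 12 fits without 1 library, while Hebp1 held in 12. None of the 8 genes of heme synthesis, 7 of cytosolic iron sensing and 6 of oxygen sensing was called in level, and Epo was listed at 0.

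In the rhythm test, 16 of the 81 genes passed in control (19.8%) and 41 in IH (50.6%), against 20% and 39.9% of all genes. In the list of cytosolic iron sensing, 1 of 7 passed in control and 6 of 7 in IH, among them Aco1 and Ireb2, which encode the iron regulatory proteins, and Ncoa4, the receptor for the breakdown of ferritin. In BMP-SMAD signalling, 1 of 15 passed in control and 6 in IH, among them Smad7, which peaked at ZT4.4 (P = 9.4e-04, n = 18 libraries). Alas1, the rate-limiting enzyme of heme synthesis, had the largest swing of the lists in both, 5.11-fold in control with its peak at ZT12.8 and 6.25-fold in IH with its peak at ZT14.2. A gene that passes in 1 condition and not in the other is not thereby shown to differ, and no gene passed the test of that difference.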

How the data were processed

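The authors sequenced stranded polyadenylated liver RNA, aligned reads to mm10 with TopHat2 2.1.1 (Bowtie2) and estimated FPKM per gene symbol and library with Cufflinks 2.2.1 (versions from the submitters' processing notes). The annotation, the strand setting and any scaling between libraries are not given in the sources used here. The deposited FPKM were used as they stand. The condition of each table follows its name, and time point and replicate follow its columns. The 280 symbols on more than 1 row were left out of 24346. The tests used log2(FPKM + 1) in limma 3.58.1 (R 4.3.3, intensity trend) over the 13215 genes averaging 0.1 FPKM or more: IH against control at each time point with all 36 libraries in 1 fit, at ZT4 and ZT8 with time as a factor over 12, over all time points, a 24-h cosine within each condition, and the interaction of condition with that cosine. A level was called at a Benjamini-Hochberg adjusted p of 0.05 over all genes, a rhythm at a nominal P of 0.01. The BIO_CYCLE and Cyber-T tests of the study were not used here. Relations were tested with 100000 shuffles within groups, two-sided. The members, the lists and the tests were chosen with earlier results of these data known. Named genes are the members, the genes of the 8 pathway lists that passed a test of level (up to 4 a list by smallest p; 1 gene is not reported here), and the 5 genes with the highest r to Hamp and to Tfrc; the pathway genes named for rhythms were picked with their values in view. The fits at ZT4, over ZT4 and ZT8 and of the rhythms were first tested on simulated data. For the difference between the rhythms no true difference was simulated, and the other fits were not tested in this way. Sequences come from RefSeq (GRCm38.p6) and GENCODE M21, and Python 3.11.15 with matplotlib 3.10.9 made the figures. Alternatives are listed with their effects in the closing section.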

Additional observations from a re-analysis of the deposited data

Results flagged for a closer look

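Tfrc moved in opposite directions at 2 times of day. It was lower in all 3 IH libraries than in all 3 control libraries at ZT4 and higher in all 3 at ZT12, and the difference between IH and control was larger at ZT12 than at ZT4 by 1.02 ± 0.26 on the log2(FPKM + 1) scale (limma over all genes, adjusted p = 0.021, with 5.88% of genes called in this comparison). The pair of times was chosen after the values were seen, from 15 pairs of time points for each of 10 members, among which 6 pairs, all in Tfrc, had groups that did not overlap and moved in opposite directions. The other 5 pairs had adjusted p of 0.11 or more. In limma's F test over the 6 time points the interaction of condition and time had an adjusted p of 0.14 for Tfrc (n = 36 libraries), with 0.136% of genes called. Without the 3 libraries with Saa1 above 10000 FPKM, 1 of which is a control library at ZT12, the value was 0.87 (adjusted p = 0.016), and without the 8 above 1000 FPKM it was 0.81 (adjusted p = 0.156), in a fit that left 1 control library at ZT4, which was assumed to vary like the other groups. Without any 1 of the 12 libraries it lay between 0.85 and 1.11, and the call was lost without IH ZT4 replicate 2, IH ZT4 replicate 3, IH ZT12 replicate 2 or control ZT4 replicate 3 (adjusted p of 0.052 to 0.075).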

How the results depend on the processing

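Without the 3 libraries with Saa1 above 10000 FPKM, 11 of the 80 differences between IH and control of the members changed sign, none above 0.23 with all libraries. The differences at ZT4, ZT8 and ZT20, among which every call of a member lay, held none of the 3 and could not change. Leaving out the 8 above 1000 FPKM leaves 1 control library at ZT4, assumed to vary like the rest, and 15 differences then changed sign (up to 0.60). The count of members called moved as follows. At ZT4, where 1 was called, it was 3 when only the libraries of that time point were used and 3 without the 3 libraries with Saa1 above 10000 FPKM (Bmp6 and Tfrc added), and 0 without the 8 above 1000 FPKM, an alternative added after the data were seen. Over ZT4 and ZT8, where 2 were called, it was 1 with no filter (Bmp6, adjusted p = 0.057) and 0 without the 8 (Bmp6 0.27, adjusted p = 0.18, and Tfrc -0.39, adjusted p = 0.095). For the rhythm in IH, where 2 were called, it was 4 with adjusted in place of nominal P, 5 without the 3 and 5 without the 8. Leaving out 1 library gave 0 to 2 at ZT4, 0 to 3 at ZT12 (3 without control replicate 3, which added Tfrc, Fth1 and Ftl1, and 1 without control replicate 1), 1 to 3 over ZT4 and ZT8, 2 to 3 for the rhythm in control and 2 to 5 for that in IH. Of all 13215 genes, these fits called 22 to 799 at ZT4, 0 to 3122 at ZT12 and 231 to 1342 over ZT4 and ZT8. For the rhythms they called 2290 to 3575 genes in control and 4722 to 5601 in IH. The relation of Hamp with Id1 was 0.56 within control, and that with Tfrc was 0.31 without the 3 libraries and 0.13 within IH. Over all genes, the 153 called at ZT4 became 1344 without the 3 and 729 with only the libraries of the time point. The 102 at ZT12 became 25 with no filter, 220 with median-of-ratios scaling, 1 with the replicate block and 0 without the 3, without the 8 or with only the libraries of the time point. The 1054 at ZT4 and ZT8 became 614 with no filter and 30 without the 8, and the 47 over all time points became 183 without the 3. Median-of-ratios scaling moved the median difference of all genes by 0.07 or less. Same-numbered IH and control mice of 1 time point had residuals that correlated by 0.05 on average (-0.18 to 0.29, over 0.1 in 6 of 18 pairs). At ZT12 the values were 0.29, 0.27 and 0.14. A low average cannot exclude that same-numbered mice were paired. With the replicate block the members called were 1 at ZT4, 2 over ZT4 and ZT8, 2 and 3 for the rhythms in control and in IH, and 0 in the other tests. Over all genes the block called 140 at ZT4, 901 over ZT4 and ZT8 and 49 over all time points. For the rhythms it called 2412 genes in control and 5110 in IH. The cause of these shifts was not tested. Depth is unknown, and 3 mice a group limit what can be called at 1 time point.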
